A study of Mus musculus with 24 samples.

Results

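The genes described here encode the cytoplasmic translation factors of mouse hippocampal slices, the proteins that load ribosomes onto mRNA, choose the start codon, add amino acids and release the finished chain. Members were the genes whose symbol starts with Eif1, Eif2, Eif3, Eif4, Eif5, Eif6, Eef1 or Eef2, together with Pabpc1, Pabpc4, Etf1, Gspt1 and Tpt1, with the kinase gene Eef2k and pseudogenes left out. The rule used names and no measured value. It found 67 genes among 23845 rows of the RNA table and the same 67 among 20436 rows of the footprint table.

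RNA-seq and ribosome profiling were run on the same lysates of wild-type (WT) and Tsc2+/- slices that had received vehicle (artificial cerebrospinal fluid, ACSF) or DHPG at 100 µM for 5 min. DHPG is an agonist of the group I metabotropic glutamate receptors, and TSC2 is a subunit of the complex that restrains the growth kinase mTORC1. There were 4 groups of lysates, WT vehicle, WT DHPG, Tsc2+/- vehicle and Tsc2+/- DHPG, with 3 replicates each, so 24 libraries in all. All mice were males aged 28 to 42 days. The Tsc2+/- animals carried a germline deletion of 1 allele made with CMV-Cre and were compared with WT littermates on C57BL/6J, area CA3 had been cut away, and each lysate pooled slices of several mice, so a value is a mean over animals and over every cell type in the slice. All slices received cycloheximide before freezing, which holds ribosomes on the mRNA.

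Translation begins when eIF2, carrying the initiator tRNA, joins the small ribosomal subunit with eIF1, eIF1A, eIF3 and eIF5, and when eIF4F, made of the cap-binding protein eIF4E, the scaffold eIF4G and the helicase eIF4A, brings that complex to the 5′ end of the mRNA. eIF2B reloads eIF2 with GTP, and the eIF2α kinases slow it. eEF1A delivers aminoacyl-tRNA, eEF1B recharges eEF1A, eEF2 moves the ribosome by a codon, and eRF1 and eRF3 (Etf1 and Gspt1) end the chain. Many of these mRNAs, Eef1a1 and Eef2 among them, belong to the TOP class: they start with a cytidine followed by an uninterrupted stretch of pyrimidines, the terminal oligopyrimidine motif, through which mTORC1 governs their loading onto ribosomes.

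To show how far the annotated starts carry such a stretch, the letters around them are given for the 6 of 11 members on a list of known TOP mRNAs that had a start in the RefSeq-derived table of GRCm38.p6. Each window below spans 30 bases, from 5 bases before the annotated start to 25 bases after it, and capitals mark the longest run of a C followed by at least 5 further C or T.
Eef1a1, chr9:78481700-78481729, minus strand: CCCTCTTCCCgagggtgggggagaacggta
Eef2, chr10:81176626-81176655, plus strand: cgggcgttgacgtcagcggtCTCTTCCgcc
Eif3f, chr7:108934410-108934439, plus strand: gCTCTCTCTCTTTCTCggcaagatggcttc
Eif4b, chr15:102073768-102073797, plus strand: tcggacgccgcgccaCCCCCTCgcgctgct
Eef1b2, chr1:63176826-63176855, plus strand: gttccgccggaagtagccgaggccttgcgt
Tpt1, chr14:75845251-75845280, plus strand: acgacagttccgggggagccgcggacggtg
A run of this kind was present in 4 of the 6 windows, the longest in Eif3f with 15 bases, and in 20.1% of 32851 such windows over all genes. The run began at base 1 of the window in Eef1a1 and at base 2 in Eif3f, close to the annotated start, but at base 16 in Eif4b and at base 21 in Eef2, well past it. Eef1b2 and Tpt1 held none in this window, which says only that these letters are not there. The other 5 listed members, Eef1d, Eef1g, Eif3e, Eif3h and Pabpc1, are named only.

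RNA libraries held 14801679 to 24067838 counted reads and footprint (RPF) libraries 5296006 to 13613673. Members took 1.17% to 1.29% of the RNA counts and 1.15% to 1.22% of the RPF counts. Of the RPF counts above 0, 48.2% to 49.0% were even numbers in replicate 1 and 97.9% to 98.5% in replicates 2 and 3, and 48.5% to 49.7% of the RNA counts were even. Tsc2 itself averaged 191 CPM (the count scaled to a common library size) in the RNA of WT vehicle slices and 134 CPM in Tsc2+/- vehicle slices, a log2 difference of -0.52 ± 0.054 (SE), with an adjusted p of 2.04e-07 by edgeR. The summed RNA level of 3 CA1 neuron markers was 1047 to 1178 CPM, against 16.6 to 23.5 CPM for CA3 markers and 4399 to 5724 CPM for 5 oligodendrocyte markers, so the members' values come from neurons and glia together, and fewer cells of a type cannot be told apart from less RNA per cell.

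In WT vehicle slices the factors were abundant mRNAs. Levels below are CPM per kilobase (RNA over the whole transcript, RPF over the coding sequence without its first and last 30 bases), and their ratio is the translation efficiency (TE) per length. The 65 members measured this way had a median RNA level of 27.4 CPM per kb and a median RPF level of 72.3 CPM per kb, against 8.49 and 18.01 over 12155 genes. Eef1a1, the main eEF1A gene of most tissues, had the highest RNA level per kb of all these genes, 1689 ± 77.4 (SD, n = 3). TE per length did not set the members apart from other genes: their median was 2.31 and that of all genes 2.28, with 33 of 65 members above the latter. Within the set it ranged from 0.238 for Pabpc4 to 34.2 for Eif1ax.

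**Figure D1:**
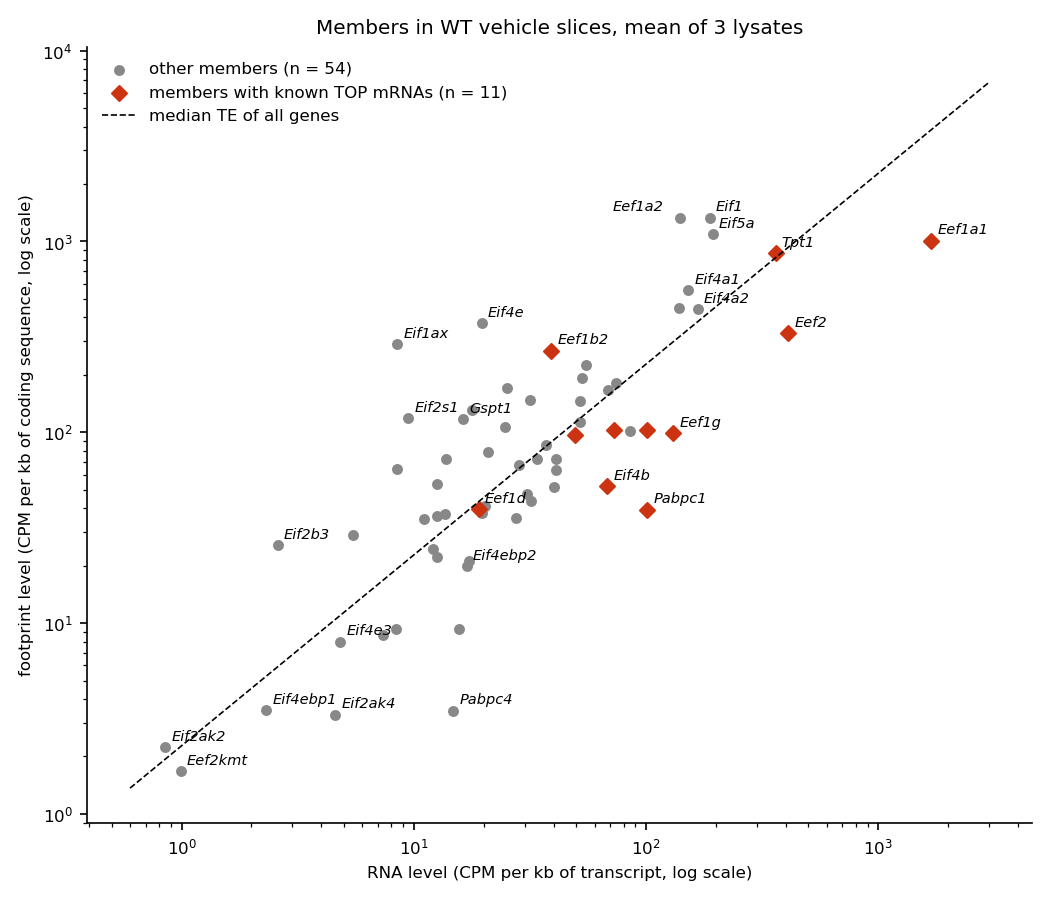
RNA level per kb of transcript (x, log scale) against RPF level per kb of coding sequence (y, log scale) in WT vehicle slices, 1 point per member (mean of 3 lysates; red diamonds are the 11 known TOP mRNAs) with a dashed line at the median TE of all genes. Eef1a1, Eef2, Eef1g, Eif4b and Pabpc1 lie below the line, whereas Eif1ax, Eif4e and Eif2s1 lie far above it.

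Most of the known TOP mRNAs carried few footprints for their RNA. The median RNA level of all 11 was 100.7 CPM per kb, against 19.9 for the other 54 members. The median TE per length of the 11 was 1.03 against 2.57, with 10 of 11 below the median of the others. Pabpc1, the main cytoplasmic poly(A)-binding protein, stood at 0.393 ± 0.0866 (SD, n = 3). Eef1a1 stood at 0.600 ± 0.0446, Eef1g, a subunit of eEF1B, at 0.763 ± 0.0989, Eif4b, a helper of the eIF4A helicase, at 0.767 ± 0.107 and Eef2, the translocase, at 0.812 ± 0.104. Eef1b2, which exchanges the nucleotide of eEF1A, was the exception with these lengths, at 6.90 ± 0.369. With the median length of all annotated transcripts of a gene in place of the longest, the medians were 1.03 and 2.36. Eef1d at 3.08 and Tpt1 at 2.43 then also lay above the median of the others. Tpt1 had the same value with the longest transcript. Exact second copies of coding sequence elsewhere in the genome are common among these genes: only Eif3f, with a TE per length of 1.43, had at least 90% of its 30-base coding windows without a second copy, and in Eef1a1 the share was 11.5%, in Eef1g 4.90%, in Pabpc1 47.7% and in Eef2 69.6%. The 36 members not on the TOP list with at least 90% of windows without a second copy had a median TE per length of 2.05. The part of such copies in the low TE was not tested. The TOP list was drawn up with earlier results of these data known, and no test was made of it.

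Low values were not limited to the listed TOP mRNAs. Pabpc4, a relative of Pabpc1, had the lowest TE per length of the set, 0.238 ± 0.0455 (SD, n = 3), with 9.40% of its coding windows free of a second copy. Eif4enif1, the transporter of eIF4E, stood at 0.596 ± 0.0251, and Eif2ak4, the eIF2α kinase that senses uncharged tRNA, at 0.721 ± 0.174, and both have over 90% of windows free of copies.

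**Figure D2:**
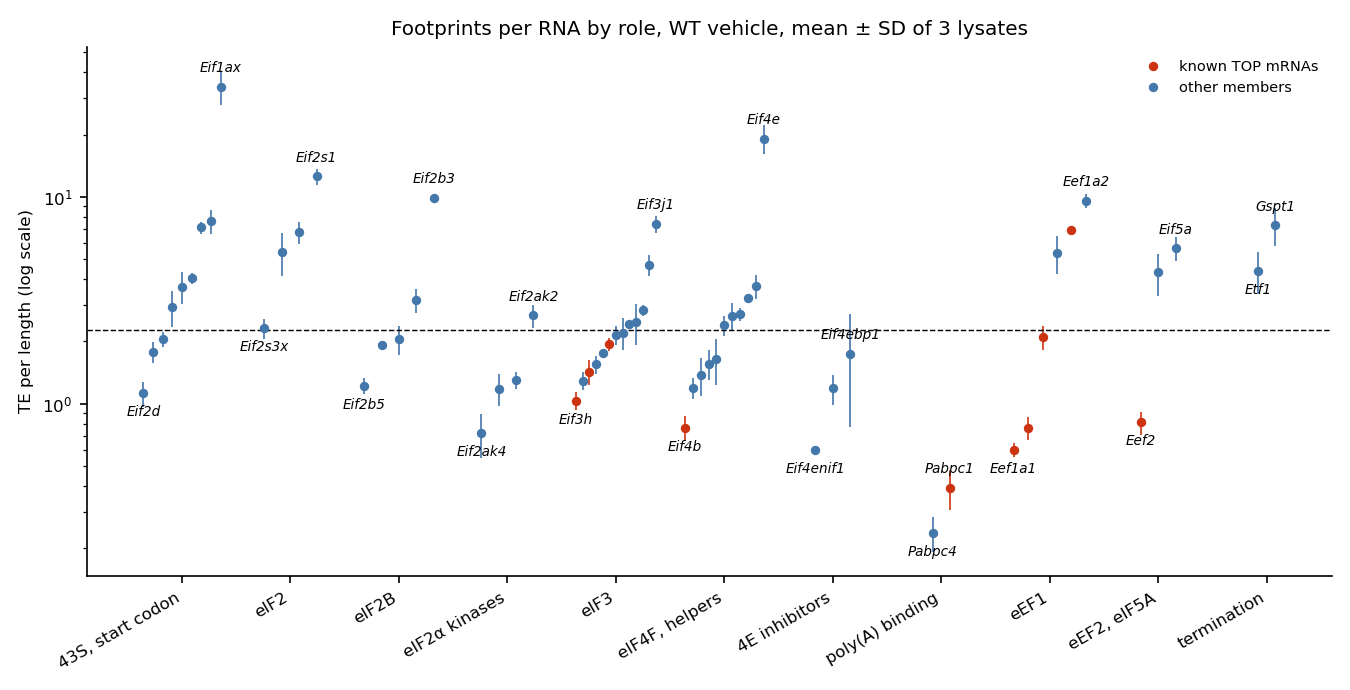
TE per length (y, log scale; mean ± SD of 3 WT vehicle lysates) for 62 members grouped by role, with known TOP mRNAs in red and a dashed line at the median of all genes. TE within one role spans up to 30.5-fold, from 1.12 for Eif2d to 34.2 for Eif1ax among the factors of 43S assembly.

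At the other end, Eif1ax, an X-linked gene for eIF1A, which helps scanning, had 288.8 RPF CPM per kb on 8.48 RNA CPM per kb. Its TE per length was 26.9 to 39.2 over the 3 WT vehicle lysates, the highest of the set in each of the 4 groups. That rank rests on an annotated transcript of 4865 bases for a coding sequence of 435. As RPF CPM per RNA CPM, the median of Eif1ax over 12 lysates was 3.02, below 4.56 for Eif3m and 4.32 for Eif2s3y. Eif1a, whose product is nearly identical, had 12.6 RNA CPM per kb and a TE per length of 2.93 ± 0.572 (SD, n = 3). Eif1a had 1.41 to 1.73 times the RNA of Eif1ax per length and 0.0934 to 0.151 times its footprints over 12 lysates. By CPM the RNA ratio was 0.927 to 1.14 and the RPF ratio 0.176 to 0.283. The per-length RPF ratio rests on an annotated coding sequence of 765 bases for Eif1a against 435 for Eif1ax. Eif4e, the cap-binding protein, followed at 19.1 ± 3.06, or 13.9 with median lengths of transcript and coding sequence. Its coding sequence has 399 bases in the longest transcript and a median of 526.5, while the transcript lengths are 5011 and 4995. Of its coding windows, 14.5% were free of a second copy. Eif2s1, the α subunit of eIF2 and the target of the eIF2α kinases, stood at 12.6 ± 1.14. Eif2b3, a subunit of eIF2B, stood at 9.92 ± 0.330, but at 4.10 with median lengths, the only member that moved by more than 1.5-fold. The order of members by TE was much alike in all groups: Spearman's rho of group means with WT vehicle over 65 members was 0.983 to 0.988, given as a description, since the genes share lengths and the groups share a library preparation.

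Subunits of one complex were closer to each other in footprints than in RNA for eIF2, eIF2B and the release factors in WT vehicle, but not for eIF3. In eIF2 the RNA ranged 3.92-fold, from Eif2s1 at 9.46 to Eif2s3x, the X-linked γ subunit, at 37.1 CPM per kb, while RPF ranged 1.98-fold, from Eif2s3x at 85.7 to Eif2s2, the β subunit, at 169.7. These ranges leave out the Y-linked Eif2s3y, and with it they were 6.79-fold in RNA and 5.85-fold in RPF. Coding windows free of a second copy made up 44.4% in Eif2s1, 16.3% in Eif2s2 and 2.78% in Eif2s3x. In eIF2B the RNA ranged 7.56-fold, from Eif2b3 at 2.60 to Eif2b2 at 19.6, and RPF 1.79-fold, from Eif2b5 at 21.1 to Eif2b2 at 37.8. With median lengths the RNA range of eIF2B was 3.13-fold. The release factors had RNA levels of 16.3 CPM per kb for Gspt1 and 24.7 for Etf1, and RPF levels of 117.3 and 107.2. The 12 subunits of eIF3 (Eif3j1 not counted) ranged 3.29-fold in RNA, from the largest subunit gene Eif3a at 30.6 to Eif3h at 100.7, and 3.82-fold in RPF, from Eif3a at 47.3 to Eif3k at 180.6. The 3 eEF1B subunits ranged 6.87-fold in RNA and 6.75-fold in RPF, or 4.09-fold and 2.73-fold with median lengths. No test was made of these ranges.

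Some paralogs traded places between RNA and footprints. Eef1a2, the eEF1A gene of neurons and muscle, was less abundant than Eef1a1 in RNA, at 1042, 1116 and 1181 CPM in WT vehicle against 2992, 2904 and 3176 CPM. In footprints the order was turned, with 1809, 1751 and 1774 CPM for Eef1a2 against 1243, 1397 and 1394 CPM for Eef1a1. The Eef1a1 values lay above those of Eef1a2 in the RNA of all 12 lysates and below them in the RPF of all 12. The ratio of Eef1a1 to Eef1a2 was 2.53 to 2.87 by RNA CPM and 0.687 to 0.854 by RPF CPM. Per length the RNA ratio was 11.3 to 12.8, which rests on an annotated transcript of 7980 bases for Eef1a2 against 1790 for Eef1a1, whereas the coding sequences are alike at 1392 and 1389 bases. Of the coding windows of Eef1a2, 98.5% had no second copy, against the 11.5% of Eef1a1. The paper states that only uniquely mapped reads were kept. Yet Eif1, Tpt1 and Eif3j1, each with 0% of coding windows free of a second copy, held RPF counts. These were 2140 to 5309, 2126 to 5884 and 538 to 1340 per library, so how uniqueness was applied to the counts is unknown. The part of second copies in the turned order was not tested.

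The eIF4A helicase genes crossed over as well: Eif4a1 had 0.848 to 0.975 times the RNA per length of Eif4a2 and 1.17 to 1.32 times its footprints, with only 0.795% of the Eif4a1 coding windows free of a second copy. Eif4g1 had 1.16 to 1.37 times the RNA of Eif4g3, a related scaffold, and 1.39 to 1.56 times its footprints. The X-linked Eif2s3x had 5.48 to 9.12 times the RNA of its Y-linked partner Eif2s3y and 2.75 to 3.81 times its footprints. The share of coding windows free of a second copy was 2.78% in Eif2s3x and 97.7% in Eif2s3y. In these 3 pairs the RPF ratio lay on the same side of the RNA ratio in 12 of 12 lysates. The part of second copies in these ratios was not tested. Eif5a and Eif5a2, which encode the hypusine-bearing factor that helps peptide bonds form, differed 14.0- to 17.8-fold in RNA per length and 15.3- to 28.6-fold in RPF per length, with the RPF ratio above the RNA ratio in 11 of 12 lysates. By CPM the RNA ratio was 4.04 to 5.12 and the RPF ratio 15.4 to 28.8, since the annotated transcript has 5026 bases for Eif5a2 and 1445 for Eif5a.

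**Figure D3:**
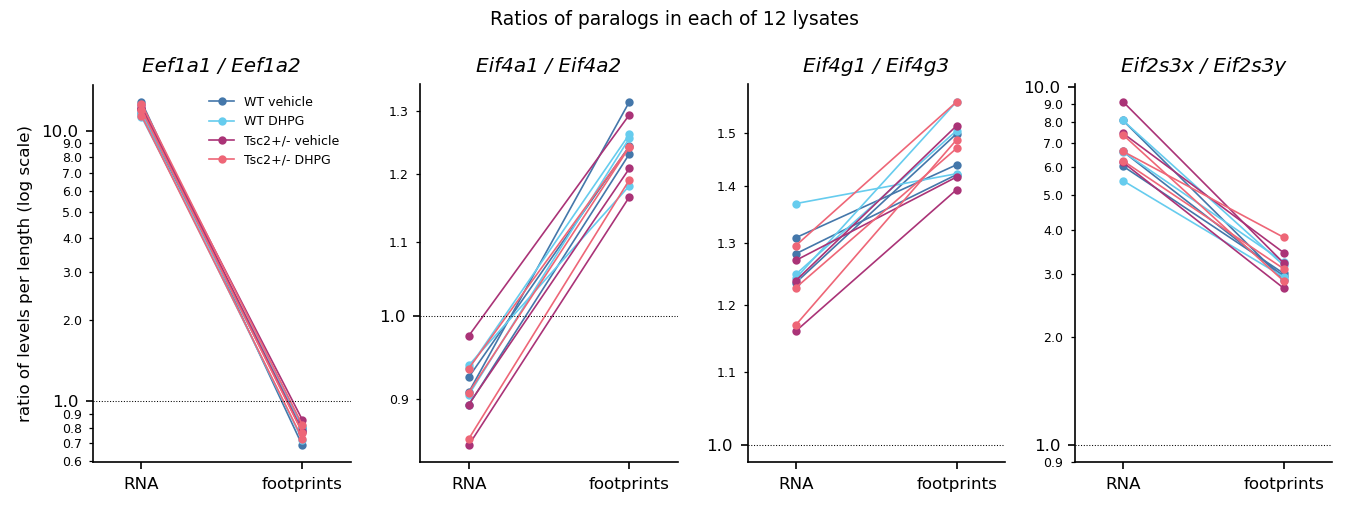
Ratio of the first to the second paralog per length (y, log scale, different for each panel) in RNA and in footprints, 1 line per lysate, coloured by group. In all 12 lysates the Eef1a1 to Eef1a2 ratio went from at least 11.3 in RNA to at most 0.856 in footprints, and the Eif4a1 to Eif4a2 ratio crossed 1.

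The first question of the design is what losing 1 Tsc2 allele did without stimulation. No member passed the test at an adjusted p under 0.1 (edgeR's quasi-likelihood test with Benjamini-Hochberg adjustment over all genes) in RNA, where 0.0896% of all genes were called, in RPF, where 0.0233% were called, or in TE, where 0% were called. TE was tested as the difference between the RPF and RNA responses in one model, and TE values below are RPF CPM per RNA CPM. At an unadjusted p under 0.05 there were 4 of 66 members in RNA (4.9% of all genes), 6 of 65 in RPF (6.55%) and 6 of 65 in TE (5.73%). DESeq2 called 0 members in the 3 measures, and ComBat followed by DESeq2 called 1 in RNA, Tpt1, with a log2 fold change of -0.15 and an adjusted p of 0.0731, where it called 127 of all genes. The median log2 fold change of members was -0.016 in RNA, 0.0076 in RPF and 0.024 in TE, against -0.0020, -0.0021 and -0.0042 over all genes. RNA estimates were above 0 for 25 members (49.2% of all genes) and below 0 for 41 (50.8%), or 39 and 27 after a trend with GC content and length had been removed. Without replicate 3 the RNA counts were 40 above and 26 below 0. With libraries left out, the RNA median ranged from -0.033 to 0.020. Without replicate 2 of WT vehicle, TE gave 70 called genes, 0 called members and 13 members at an unadjusted p under 0.05.

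The precision was enough to limit sizes. The 95% interval of the genotype effect lay within 1.5-fold in either direction for 63 of 66 members in RNA, 59 of 65 in RPF and 58 of 65 in TE, and for all 11 known TOP members in each of the 3 measures. The TE of Eef2, the archetypal TOP factor, was 0.756, 0.602 and 0.619 in WT vehicle and 0.656, 0.606 and 0.613 in Tsc2+/- vehicle. The groups overlapped, and the fold was 0.951 (95% interval 0.866 to 1.04). The widest intervals belonged to scarce mRNAs such as Eif4ebp1, an inhibitor of eIF4E, whose genotype effect in RPF had a fold of 1.39 with an interval from 0.596 to 3.23.

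The smallest p in TE belonged to Eif3m, a subunit of eIF3. Its TE was 3.56, 4.50 and 4.11 in WT vehicle and 4.91, 5.00 and 4.91 in Tsc2+/- vehicle, with no overlap, and the log2 fold change was 0.29 ± 0.099 (SE; adjusted p = 0.799 by edgeR). Its RNA was 41.7, 34.5 and 40.7 CPM in WT vehicle and 34.8, 35.2 and 35.6 CPM in Tsc2+/- vehicle. Other estimates were 0.27 for Eif2s1 and -0.22 for Eif5b, the GTPase that joins the ribosomal subunits. In RPF the smallest p belonged to eIF3 subunits, Eif3i at 0.18, Eif3m at 0.15 and Eif3l at 0.16, and in RNA to Eif2ak1, the heme-regulated eIF2α kinase, at 0.14, Eif3k at -0.17 and Tpt1 at -0.13, none of which passed. With libraries left out, the last 2 ranged from -0.27 (without replicate 2) to -0.033 (without replicate 3) for Eif3k and from -0.22 (without replicate 2 of WT vehicle) to -0.028 (without replicate 3) for Tpt1.

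With DHPG in both genotypes, the genotype effect again called 0 members by edgeR in RNA (0.0482% of all genes), RPF (0.0155%) and TE (0%), and 0 by DESeq2 in each. At an unadjusted p under 0.05 there were 2, 1 and 2 members, where 4.64%, 4.13% and 3.04% of all genes reached it. Eif3b, the scaffold subunit of eIF3, had RPF levels of 113.4, 112.8 and 114.7 CPM in WT DHPG and 140.6, 137.5 and 122.9 CPM in Tsc2+/- DHPG. All Tsc2+/- values lay above all WT values, and the estimate was 0.23 ± 0.075 (SE; adjusted p = 0.9995 by edgeR). Eif4b, a TOP member, had an estimate of -0.24 in TE. The medians were -0.0041 in RNA, -0.014 in RPF and -0.0047 in TE.

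**Figure D4:**
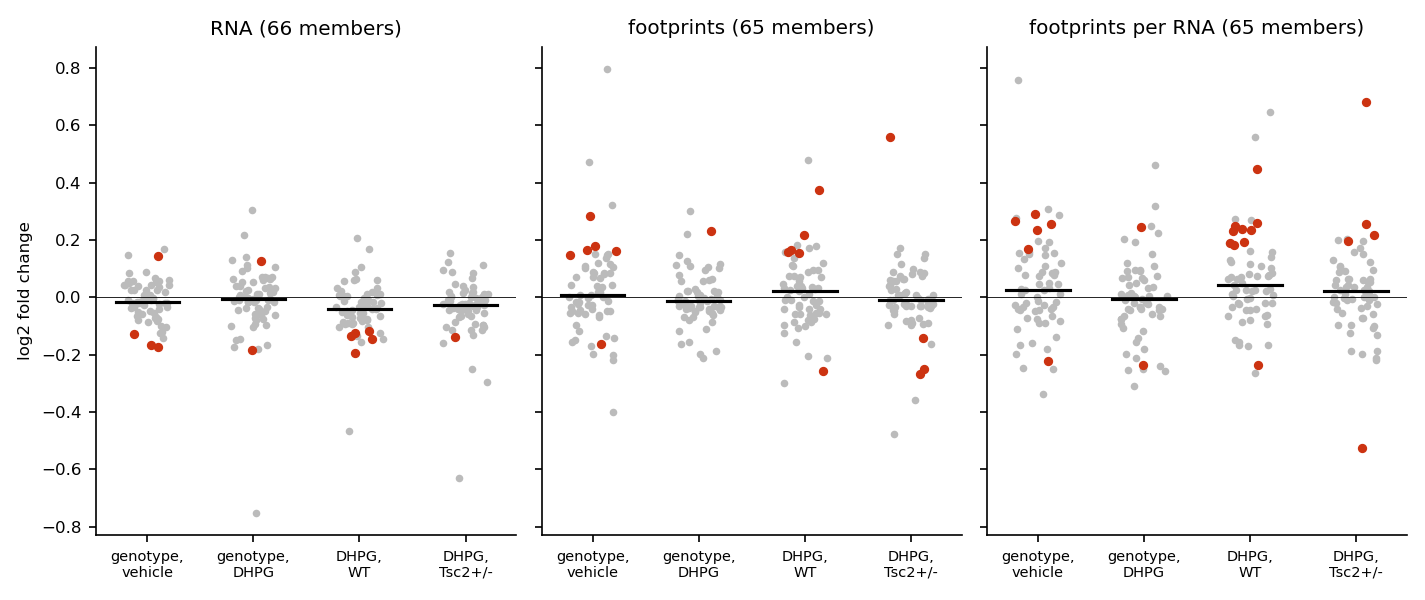
Log2 fold change (y) of each member in RNA, RPF and TE for the genotype effect in vehicle and in DHPG and for the DHPG effect in WT and in Tsc2+/- (x), with the median as a bar and members at an unadjusted p under 0.05 in red. No member passed the adjusted threshold in any column, and the medians lie between -0.040 and 0.044.

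The second question is what 5 min of DHPG did in WT slices. By edgeR 0 members were called in RNA (0% of all genes), RPF (0.0311%) and TE (0.0469%), and DESeq2 called 0 in each. ComBat followed by DESeq2 called 1 member in RNA, Eif5, the GTPase activator of eIF2, at a log2 fold change of -0.14 with an adjusted p of 0.058, where it called 351 of all genes. At an unadjusted p under 0.05 there were 5 members in RNA (6.45% of all genes), all with estimates below 0 (2.75%), 6 in RPF (6.71%) and 10 in TE (9.06%). Of the 10 in TE, 9 had estimates above 0 and 1 below, where 4.44% of all genes lay above and 4.61% below. These 9 were Eif5a2, Tpt1, Eif4a2, Etf1, Eif1ax, Eif3m, Eif2s1, Eif5 and Eif1, and the other was Eif4g1 at -0.24. TE estimates were above 0 for 42 members (50.2% of all genes) and below 0 for 23 (49.8%), with a median of 0.044. After removal of a trend with GC content and length, 31 lay above and 34 below, the median was -0.0049, and 3 members were at an unadjusted p under 0.05, so this tilt depends on that choice.

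Eif5a2 had the smallest p of the 10. Its TE was 0.254, 0.397 and 0.384 in WT vehicle and 0.489, 0.444 and 0.458 in WT DHPG. The groups did not overlap, but replicate 1 of WT vehicle lay far below the other two. The log2 fold change was 0.45 ± 0.15 (SE; adjusted p = 0.295 by edgeR), and with replicate 1 left out of every group it was 0.20. Tpt1 encodes TCTP, a small TOP-encoded protein that binds eEF1A. Its TE was 1.18, 1.43 and 1.14 in WT vehicle and 1.51, 1.34 and 1.53 in WT DHPG, with overlap at replicate 2, and the estimate was 0.23 ± 0.082 (SE; adjusted p = 0.345 by edgeR). Its coding sequence had 0% of windows free of a second copy. Eif4a2 stood at 0.711, 0.972 and 0.897 in WT vehicle and 0.966, 0.944 and 1.01 in WT DHPG, with an estimate of 0.19 that was 0.069 without replicate 1.

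Single WT lysates of both treatments moved these counts. Without replicate 2 of WT vehicle, edgeR called 5 members in TE (Eif5a2 at 0.60, Etf1 at 0.43, Tpt1 at 0.35, Eif5 at 0.33 and Eif4a2 at 0.29) and 372 of 12898 genes, and 2 in RNA (Tpt1 at -0.23 and Eif4a2 at -0.19) and 112 of 14677 genes. Without replicate 1 of WT vehicle, 0 members were called in TE and 3 were at an unadjusted p under 0.05. Without replicate 1 of WT DHPG, 0 members were called and 0 were at an unadjusted p under 0.05, and 0 of all genes were called in place of 6. The WT vehicle libraries also enter the genotype effect in vehicle and the interaction, so the TE values of Eif3m, Eif2s1, Tpt1 and Eif1ax, at an unadjusted p under 0.05 both for DHPG in WT and for genotype in vehicle, are measured against the same 3 lysates.

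**Figure D5:**
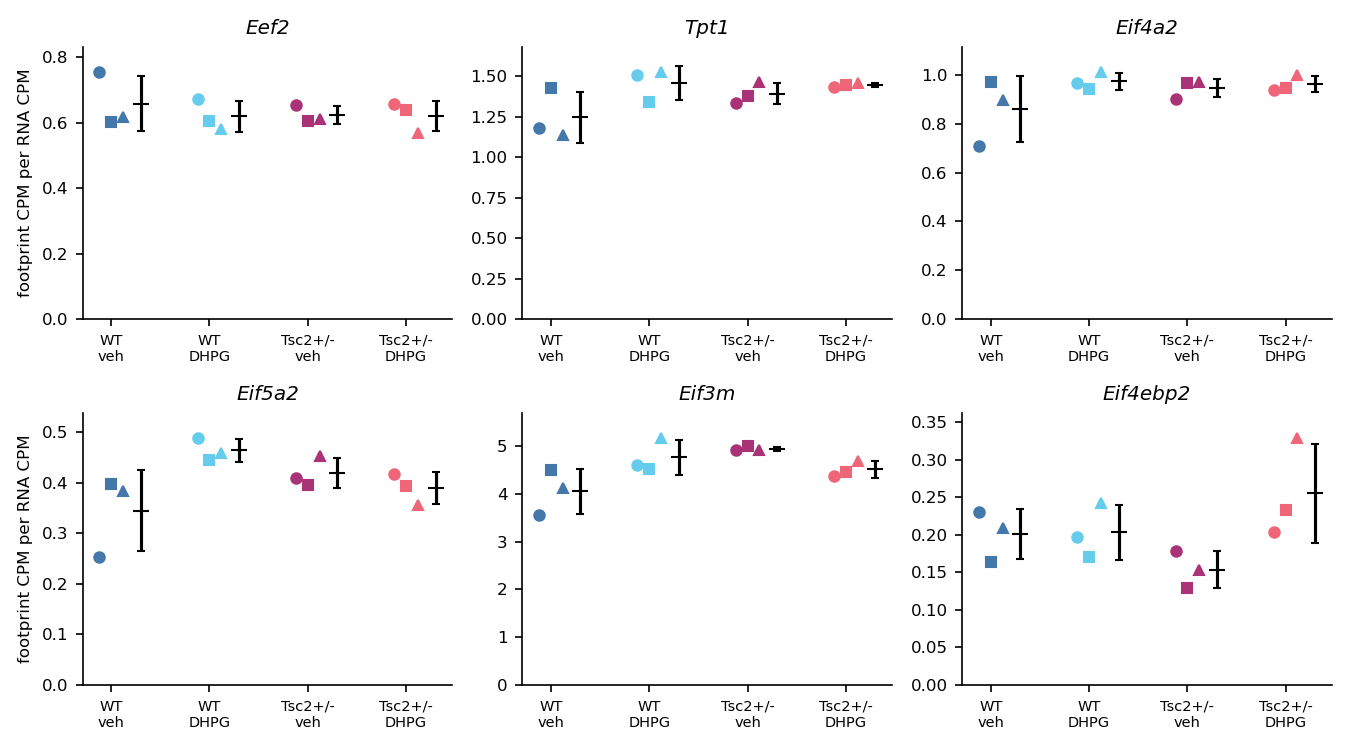
TE as RPF CPM per RNA CPM (y, from 0) in each lysate for 6 members by group (x), with circles, squares and triangles for replicates 1, 2 and 3 and the mean ± SD beside them. Eef2 overlaps between all groups, replicate 1 of WT vehicle is the lowest value of Eif5a2 and Eif4a2, and Eif4ebp2 is highest in Tsc2+/- DHPG with 1 replicate at 0.329.

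In Tsc2+/- slices DHPG called 0 members by edgeR in RNA (0% of all genes), RPF (0%) and TE (0%), and 0 by DESeq2 in each. At an unadjusted p under 0.05 there were 1, 4 and 5 members, where 4.32%, 4.03% and 3.68% of all genes reached it. Eif4ebp2, the main eIF4E inhibitor of neurons, had the largest estimate in RPF and TE. It held only 28 to 82 RPF counts per library, and the even counts of replicates 2 and 3 leave its independent reads there unknown. Its RPF level was 5.30, 3.71 and 4.42 CPM in Tsc2+/- vehicle and 5.42, 6.35 and 8.49 CPM in Tsc2+/- DHPG, with RNA at 29.6, 28.8 and 28.9 CPM against 26.6, 27.3 and 25.8 CPM. Its TE was 0.179, 0.129 and 0.153 without and 0.204, 0.232 and 0.329 with DHPG. The groups did not overlap, and the log2 fold change in TE was 0.68 ± 0.22 (SE; adjusted p = 0.9996 by edgeR), a fold of 1.60 with a 95% interval from 1.18 to 2.18. In WT the estimate was 0.024, at 0.230, 0.164 and 0.209 without and 0.197, 0.170 and 0.242 with DHPG. Eif3e, a TOP-listed eIF3 subunit, stood at 0.22 in TE. Pabpc4 stood at -0.52, with RPF levels of 5.10, 9.54 and 7.36 CPM without and 6.28, 6.72 and 2.83 CPM with DHPG, so replicate 3 with DHPG lay far below the others. The medians were -0.026 in RNA, -0.0087 in RPF and 0.023 in TE.

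The third question is whether DHPG acted differently in the 2 genotypes, which is the interaction itself. By edgeR 0 members were called in RNA (0% of all genes), RPF (0%) and TE (0%), and 0 by DESeq2 in each. ComBat followed by DESeq2, run on RNA and RPF, called members in no comparison besides those given above. At an unadjusted p under 0.05 there were 0 members in RNA, 3 in RPF and 5 in TE, where 3.47%, 3.81% and 4.06% of all genes reached it. The 5 in TE were Eif5a2 at -0.54 ± 0.21 (SE), Eif3m at -0.37 ± 0.14, Eif3b at 0.29, Eif4ebp2 at 0.66 ± 0.31 and Eif4g1 at 0.33, each with an adjusted p of 0.999 by edgeR. For Eif5a2 the estimate was -0.31 without replicate 1 of WT vehicle. The 95% interval lay within 1.5-fold for 60 of 66 members in RNA, 53 of 65 in RPF and 44 of 65 in TE.

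By role, DHPG in WT gave TE medians of 0.050 for the 13 eIF3 genes, 0.099 for the 4 eIF2 subunits, 0.0046 for the 11 genes of eIF4F and its helpers and -0.027 for the 6 eEF1 genes, with 0 members called in each. The known TOP members had TE medians of 0.024 for the genotype effect in vehicle and 0.0064 in DHPG, and of 0.023 for the DHPG effect in WT and 0.0029 in Tsc2+/-, beside 0.026, -0.020, 0.064 and 0.025 for the other members. In RNA, 10 of the 11 TOP members had estimates below 0 for DHPG in Tsc2+/-, where 49.9% of genes lay below 0 and 50.1% above. Their median of -0.025 was close to that of the other members, -0.026, with 36 of 55 below 0, and in WT 6 of the 11 TOP members lay below 0.

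A list of 32 upstream regulators and partners of these factors held mTOR, S6 kinases, MNKs, Fmr1, Eef2k and others. Tsc2 was the only one of them called, in the 4 genotype comparisons of RNA and RPF. Eef2k, the kinase that inhibits eEF2 and a known mediator of group I receptor signalling, had RNA levels of 21.7, 23 and 22.04 CPM in WT vehicle and 22.8, 22.5 and 23.5 CPM in WT DHPG, and its TE estimate for DHPG was -0.075 ± 0.16 (SE) in WT and -0.24 ± 0.16 in Tsc2+/-. In TE, 10 of the 32 were at an unadjusted p under 0.05 for DHPG in WT, 5 above and 5 below 0, beside 10 of the 65 members and 9.06% of all genes. The smallest p belonged to Mcts1 at 0.58 ± 0.15 (SE; adjusted p = 0.176 by edgeR), whose product works with DENR in reinitiation, and Rheb, the GTPase that activates mTORC1, stood at 0.43 ± 0.11 (adjusted p = 0.183).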

How the data were processed

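Expected counts from RSEM, rounded to whole numbers, were deposited by the authors for 12 RNA and 12 RPF libraries. Per the labels and methods, reads had been trimmed (Cutadapt, Trimmomatic), cleared of rRNA and tRNA (bowtie2), aligned to mm10 (TopHat2), kept where unique and deduplicated by molecular identifiers. RNA was counted over whole transcripts, RPF over coding sequence without its first and last 30 bases. Genes passed filterByExpr (minimum count 10): 14516 in RNA, 12877 in RPF and 12785 in TE. Of the members, Eif4e1b was not tested and Eif4ebp3 was tested in RNA only. edgeR 4.0.16 (TMM scaling, robust quasi-likelihood fit) was run with group and replicate number as terms. TE was the interaction of assay and group over 24 libraries, with replicate within assay. The Benjamini-Hochberg adjustment ran over every gene tested, and an adjusted p under 0.1 was called. Named members have the 3 smallest p per measure and comparison, or a role named in the text.

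The replicate number is the only batch label given and was fitted as one. The paper corrected its counts for batch, but neither it nor the labels tie its batches to these numbers. Libraries of the same number tended to deviate together, with correlations of 0.0164 to 0.151 in RNA and 0.0316 to 0.252 in RPF, against -0.132 to 0.0254 and -0.190 to 0.0677 for different numbers. These ranges overlapped in both assays. The medians by number were 0.0631 to 0.0858 in RNA and 0.0640 to 0.194 in RPF, against -0.0313 and -0.0600 for different numbers. P-values measure the spread between pooled lysates. DESeq2 1.42.0, ComBat (sva 3.50.0) and the other alternatives of the closing section were run on the same counts, and the fits were tested on simulated data. Levels per length used the longest RefSeq transcript of each gene in GRCm38.p6. Members, role lists and the TOP list were chosen with earlier results of these data known.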

Additional observations from a re-analysis of the deposited data

How the results depend on the processing

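The number of members called was 0 in all 15 comparisons, and 365 of 370 alternatives gave the same count. The 5 others were 1 member by ComBat and DESeq2 in RNA for genotype in vehicle and 1 for DHPG in WT, and, with libraries left out, counts from 0 to 2 in RNA and from 0 to 5 in TE for DHPG in WT (1 in TE without replicate 2, namely Tpt1 at 0.40). The cause was not tested. Of 355 alternatives for the median log2 fold change of members, 332 moved by less than the spread. With a trend in GC content and length removed, the replicate block kept, the median was -0.025 in RPF for DHPG in WT, -0.0059 in TE for genotype in vehicle and 0.014 in TE for the interaction, and the cause was not tested. With libraries left out, medians ranged from -0.022 to 0.013 in RNA for genotype in DHPG, from -0.028 to 0.042 in RNA for the interaction, from -0.019 to 0.069 in RPF for genotype in vehicle, from -0.0085 to 0.041 in RPF for DHPG in WT, from -0.013 to 0.011 in RPF for DHPG in Tsc2+/-, from -0.055 to 0.0060 in RPF for the interaction, from 0.0018 to 0.026 in TE for genotype in vehicle and from -0.033 to 0.0099 in TE for genotype in DHPG. Of 1065 alternatives for 45 named values, 1056 kept direction and side of the threshold, 7 passed the threshold and 2 turned sign, the RNA interactions of Tpt1 (-0.0054 to 0.26) and Eif1 (-0.012 to 0.28), both lowest without replicate 3.

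Without the replicate block 0 members were called in all 15 comparisons, the TE median for DHPG in WT was 0.039, and 5 members in place of 10 were at an unadjusted p under 0.05. Counts over all genes moved by more than 1.5 times: TE for DHPG in WT called 6 genes with the block, 1 without it, 100 by DESeq2 and 372 without replicate 2 of WT vehicle. Without that library, TE for genotype in vehicle called 70 genes in place of 0, RNA 31 in place of 13, RNA for DHPG in WT 112 in place of 0 and RPF 26 in place of 4, and RPF for genotype in DHPG called 47 without replicate 3 in place of 2. By ComBat and DESeq2, RNA called 127, 43 and 351 genes for genotype in vehicle, genotype in DHPG and DHPG in WT, and RPF 57, 14 and 55.

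Depth limits the tested members with the fewest footprints: Eif4ebp1, Eef2kmt, Eif2ak2, Eif4e3, Eif4ebp2 and Pabpc4 had median RPF levels of 1.08 to 6.40 CPM. The even RPF counts of replicates 2 and 3 leave the number of independent reads there unknown. With those counts halved, 0 members were called and the TE median for DHPG in WT was 0.039.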

Other observations

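The RNA of Eif3f, a TOP-listed subunit of eIF3, fell into 2 levels that did not follow genotype or treatment. It was 92.6 to 99.6 CPM in 7 lysates and 126 to 139 CPM in 5, namely replicate 2 of WT vehicle, replicates 1 and 2 of WT DHPG, replicate 1 of Tsc2+/- vehicle and replicate 1 of Tsc2+/- DHPG. The higher level thus held 3 of the 4 lysates of replicate 1, 2 of replicate 2 and 0 of replicate 3. Its coefficient of variation over the 12 RNA libraries was 16.8%, above that of 99.3% of 7190 genes at 20 CPM or more, against a median of 5.52% for the members. Its RPF level overlapped between the same lysates, at 95.8 to 122 CPM in the 7 and 109 to 121 CPM in the 5. The values of 86 of 14516 genes (0.592%) separated the same lysates, among them Nptxr, at 142 to 272 CPM and 419 to 571 CPM, and Vstm2l, at 79.2 to 98.1 CPM and 133 to 143 CPM. No other member of the 66 tested did. The lysates were split by these values after they had been seen, so no test was made.

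In footprints, among the 57 members at 20 CPM or more, Eif5a2 and Eif4g3 varied most over the 12 libraries, with coefficients of variation of 14.2% and 13.9% against a median of 6.97%.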
